A study of Drosophila melanogaster with 3 samples.

Results

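Binding of the fly protein CG12391 was described at 10 genes of the Notch pathway: the receptor gene N, the ligand genes Dl and Ser, the processing and trafficking genes fng, kuz and neur, and the genes of nuclear components Su(H), mam, H and gro. These 10 genes were chosen by name, out of 13945 protein-coding genes on the chromosome arms. Every peak whose summit lay in the gene body or within 5 kb of either end was counted for a gene. The members drew 43 of the 8522 summits in the IDR-thresholded list, and 161 of the 30000 pooled summits. IDR, the irreproducible discovery rate, is a measure by which peaks that rank differently between replicates can be removed. The 8522 peaks listed here are the pooled peaks with the highest signal, and some of them still ranked differently between replicates.

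The data came from chromatin immunoprecipitation with sequencing (ChIP-seq) on whole embryos of both sexes, 0 to 24 h old. All embryos were from a transgenic line that stably expressed CG12391 fused to eGFP, and the tagged protein was precipitated with an antibody against GFP. The promoter that drives the transgene was not given in the sources used here. There were 3 biological replicates of this 1 group, and the labels name no other group, so nothing was tested between groups.

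Notch is a transmembrane receptor that is activated by ligands on neighbouring cells. Ligand binding exposes the receptor to a metalloprotease and then to γ-secretase, and the released intracellular domain enters the nucleus, where it joins Su(H) and Mastermind to activate target genes. Without it, Su(H) and Hairless recruit the co-repressors Groucho and CtBP to the same genes. In the embryo the pathway is best known for lateral inhibition, in which a cell that takes the neural fate keeps its neighbours from doing so.

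Genomic sequence at the summits is shown because high A+T content was common to most of the members' summits. It was also common over the whole IDR-thresholded list, so it is not particular to these genes. Each line gives the plus strand of dm6, from 50 bp before to 50 bp after the summit, and capitals mark its longest unbroken run of A and T, or the first of them where runs tie. The first set holds the strongest peak of each of N, Dl, kuz, neur and gro.
N, intron 5, chrX:3162480-3162580: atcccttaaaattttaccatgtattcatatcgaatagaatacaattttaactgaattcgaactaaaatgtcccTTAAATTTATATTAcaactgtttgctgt
Dl, upstream of the start, chr3R:19326435-19326535: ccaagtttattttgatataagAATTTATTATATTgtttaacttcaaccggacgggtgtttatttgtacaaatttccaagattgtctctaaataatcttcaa
kuz, upstream of the start, chr2L:13549985-13550085: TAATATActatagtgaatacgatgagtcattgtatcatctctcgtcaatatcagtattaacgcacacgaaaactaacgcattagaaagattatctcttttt
neur, upstream of the internal start, chr3R:9033912-9034012: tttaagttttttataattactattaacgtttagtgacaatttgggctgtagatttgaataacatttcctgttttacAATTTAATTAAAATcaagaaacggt
gro, upstream of an internal start, chr3R:26042448-26042548: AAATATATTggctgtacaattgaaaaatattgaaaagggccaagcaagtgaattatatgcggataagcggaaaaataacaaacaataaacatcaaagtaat

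The second set holds summits that differ from those above: the gro promoter, the 2 intronic summits with the longest runs, which were picked after their values were seen, and the summit lowest in A+T, at the N promoter.
gro, upstream of the first start, chr3R:26041552-26041652: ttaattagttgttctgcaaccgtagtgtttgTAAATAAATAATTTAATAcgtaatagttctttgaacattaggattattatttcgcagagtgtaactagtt
fng, intron 4, chr3L:20930526-20930626: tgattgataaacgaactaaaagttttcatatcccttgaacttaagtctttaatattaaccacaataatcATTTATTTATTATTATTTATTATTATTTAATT
kuz, intron 5, chr2L:13615352-13615452: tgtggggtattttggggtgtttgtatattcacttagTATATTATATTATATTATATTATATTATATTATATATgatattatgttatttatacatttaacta
N, upstream of the start, chrX:3134689-3134789: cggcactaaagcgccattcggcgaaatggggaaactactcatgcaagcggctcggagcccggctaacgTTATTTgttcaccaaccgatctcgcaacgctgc

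CG12391 peaks were found at most of the 10 genes, but their number and strength differed widely from gene to gene. In the IDR-thresholded list, 7 of the 10 had a summit in the body or within 5 kb, against 63.9% of all protein-coding genes. The genes with none were Ser, Su(H) and H. A summit lay within 500 bp of an annotated transcription start site (TSS) at 6 of the 10, against 34.4% of all genes, and these were N, Dl, kuz, neur, mam and gro. The first count was near its background and is no result about these genes, and the second was above its background, which was not tested.

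Long genes offer more sequence for summits, and 6 members (N, Dl, Ser, fng, kuz and mam) span at least 20 kb. Of these, 5 had a summit in the body or within 5 kb, against 76.8% of all genes that long, and 4 had one at a TSS, against 42.6%. Within the gene body alone a summit was found at 7 members, against 16.3% of all genes, and at 5 of the 6 long members, against 60.1% of long genes. Over the 403 kb of the members' windows there were 1.07 IDR-thresholded summits per 10 kb, against 0.566 per 10 kb over genes of at least 20 kb and 0.637 per 10 kb over the arms. The mam gene alone gave 14 of the 43 summits.

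**Figure D1:**
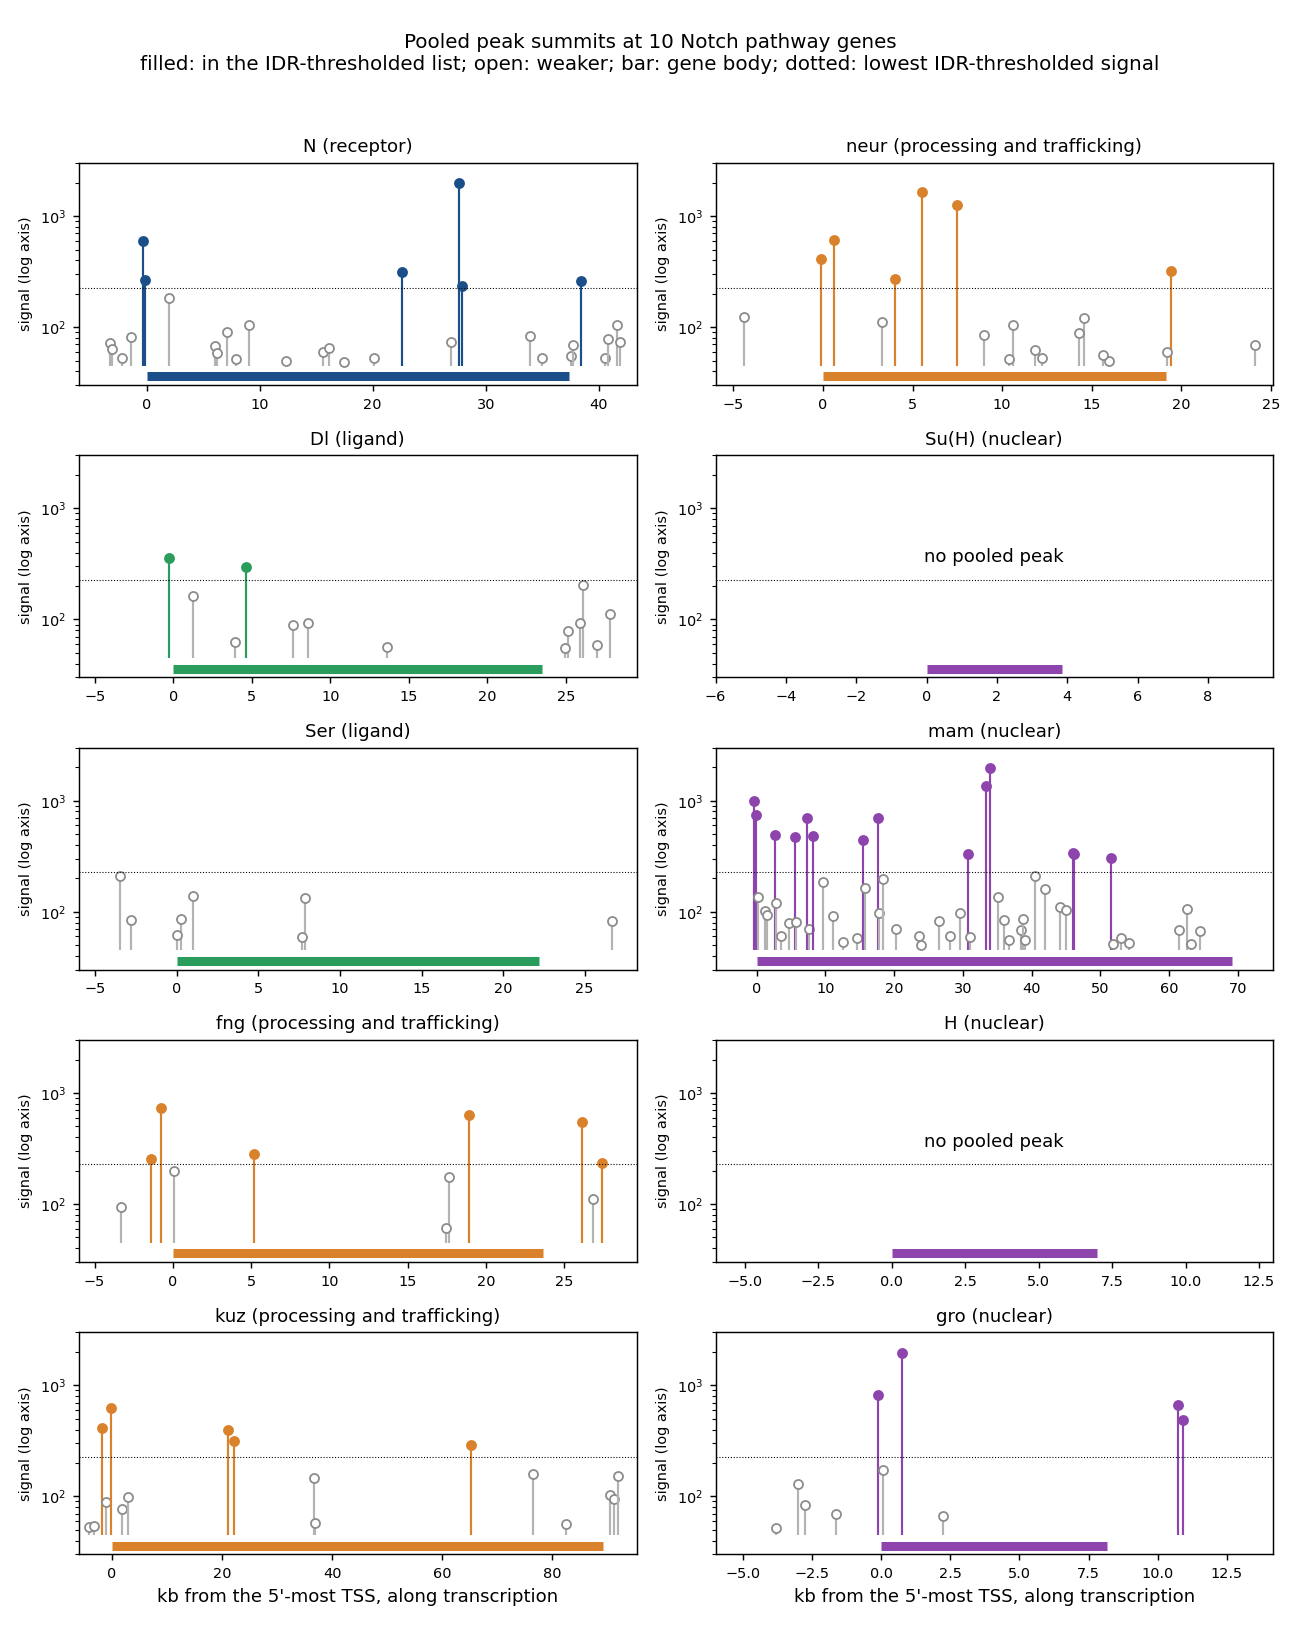
Pooled peak summits along the 10 genes, 1 panel per gene, by distance in kb from the first TSS along transcription (x axis) and by the authors' signal on a log axis (y axis). Filled points are in the IDR-thresholded list, open points are weaker, the bar is the gene body and the dotted line is the lowest IDR-thresholded signal, 227. The panels of Su(H) and H hold no point, and that of Ser holds open points only.

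The receptor gene N (FBgn0004647, X, 3134870 to 3172221, plus strand) had 6 IDR-thresholded and 30 pooled summits. Its strongest peak was not at the promoter but 27660 bp inside the gene, in intron 5 of 8. Its signal there in replicates 1, 2 and 3 was 386, 1078 and 499.5, on scales that differ between lists. The peak ranked 302, 457 and 345 in those lists, so it was among the strongest in all 3, and it ranked 369 in the IDR-thresholded list with a signal of 1968. A weaker summit of 235 shared its interval, and another in intron 4 had a signal of 315.

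At the N promoter the summits lay 331 bp and 131 bp upstream of the only TSS, with signals of 596 and 266. The peak there ranked 2264, 3762 and 2968 in replicates 1, 2 and 3. The replicates placed its strongest summit differently, at distances of 82, 342 and 331 bp from the TSS. The last of the 6 summits, with a signal of 258, lay past the 3′ end, 130 bp from the TSS of the neighbouring gene CG18508.

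Taken by role, the ligand genes together had the fewest IDR-thresholded summits, although the nuclear genes Su(H) and H singly had none. Dl (listed as Delta in the annotation, FBgn0000463, 3R, 19302731 to 19326217, minus strand), the ligand of lateral inhibition, had 2, one 268 bp upstream of its TSS with a signal of 357 and one in intron 1 with a signal of 294. The promoter peak had signals of 96.0, 205 and 66.3 in replicates 1, 2 and 3 and ranks of 4014, 5547 and 7614, all inside the 8522 strongest peaks, which are called top peaks below. The intronic peak ranked 5033, 6694 and 9250, so it fell outside the top peaks of replicate 3.

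Ser (FBgn0004197, 3R, 27172090 to 27194267, minus strand), the other ligand gene, had no IDR-thresholded summit, and the nearest one lay 10930 bp from its body. It had 8 weaker pooled summits. The strongest, 3502 bp upstream of the nearest TSS, had a signal of 208 and so fell just short of the list's lowest signal of 227. Its ranks in replicates 1, 2 and 3 were 16437, 10992 and 7456, so it was a top peak in replicate 3 only. The strongest Ser peak at a TSS had a pooled signal of 86.4 and ranked 10941, 26659 and 12806.

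Among the processing and trafficking genes, neur had the strongest peaks. Its product is a ubiquitin ligase that drives endocytosis of the ligands. The gene (FBgn0002932, 3R, 9020348 to 9039471, minus strand) had 6 IDR-thresholded summits. The strongest lay 231 bp upstream of the internal of its 2 TSSs, with signals of 260.2, 1059 and 251 in replicates 1, 2 and 3 and ranks of 711, 481 and 1252. Its IDR-thresholded signal was 1658, rank 543.

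Another strong neur summit, with a signal of 1253, lay in intron 1, 1730 bp past the same TSS, and ranked 666, 1251 and 712 in the replicates. At the upstream TSS of neur the peak was weaker, 413, and was shared with hyx, which encodes a subunit of the Paf1 complex. A summit of 613 lay 87 bp from the hyx TSS and 624 bp from that of neur. A summit of 321 beyond the 3′ end of neur lay 17 bp from the TSS of tgo, which encodes a bHLH-PAS partner protein.

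The kuz gene (FBgn0259984, 2L, 13550139 to 13639411, plus strand) encodes the metalloprotease that cuts Notch outside the cell once a ligand has bound. It is the longest member at 89.3 kb and had 5 summits, or 0.504 per 10 kb. Its strongest lay 104 bp upstream of the only TSS, the closest of any member, with signals of 217, 274 and 174 in replicates 1, 2 and 3. That peak ranked 1001, 3995 and 2289, and its IDR-thresholded signal was 621. The summits in introns 3 and 5 had signals of 293 to 399, and one of 412 lay 1782 bp upstream, in an intron of B4.

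The fng gene encodes a glycosyltransferase that modifies Notch and changes its response to the ligands. It (FBgn0011591, 3L, 20925891 to 20949512, minus strand) had 6 IDR-thresholded summits and none within 500 bp of its TSS. The strongest lay 745 bp upstream, outside any transcribed region, with signals of 124, 381 and 239.9 in replicates 1, 2 and 3 and ranks of 2718, 2639 and 1363. The next, 632, was in intron 4 and ranked 2331, 2809 and 3577. Summits of 254 and 235 lay at the TSSs of the noncoding RNA genes lncRNA:CR45243 and lncRNA:CR43929. The summit of 254 ranked 19169, 7371 and 8253 in replicates 1, 2 and 3. That of 235 ranked 13216 and 5528 in replicates 1 and 2 and had no peak in replicate 3. A summit of 285 in intron 1 ranked 12355, 8412 and 6776. The replicate lists also differed at the fng TSS itself, where a peak ranked 3355, 18087 and 8964 in replicates 1, 2 and 3. Its pooled signal of 199 was under the IDR-thresholded list's lowest.

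Of the nuclear components, mam and gro carried strong peaks and Su(H) and H almost none. Mastermind, the product of mam, is the co-activator that binds the complex of Su(H) and the Notch intracellular domain. The gene (FBgn0002643, 2R, 13991203 to 14060356, plus strand) had 14 IDR-thresholded and 53 pooled summits. As many as 14 were found at 0.194% of all protein-coding genes, or 27 genes. By this count mam ranked 19 among them, and the highest count at any gene was 33. The gene is 69.2 kb long, and all protein-coding genes of 50 to 100 kb had a median of 3 summits. Per 10 kb of window, its 1.77 summits were fewer than at gro (2.20), neur (2.06) and fng (1.78) and more than at the other members. These windows take in 5 kb on either side of each gene. Inside the gene body lay 12 of the 14 summits of mam, 4 of 6 of neur, 2 of 6 of fng and 1 of 4 of gro.

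Of the 14 mam summits, 12 were inside the gene, most of them in introns 2 and 3. The strongest lay in intron 3, 33969 bp past the first TSS, with signals of 291, 1192 and 473 in replicates 1, 2 and 3 and ranks of 567, 347 and 394. With an IDR-thresholded signal of 1984, rank 361, it was the strongest peak at any of the 10 genes. The nearest summit, also in intron 3, had a signal of 1356 and ranked 696, 1032 and 507. At the first TSS the 2 summits, 383 bp and 177 bp upstream, had signals of 997 and 742 and shared an interval that lay within 500 bp of the TSS of RN-tre, which encodes a GTPase-activating protein for Rab proteins. The remaining promoter summit, 349 bp upstream of an internal TSS, had a signal of 696.

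The replicates ranked 3 of the weaker mam summits the least alike of the 14, by the ratio of highest to lowest rank. The summit of 305 in intron 4 ranked 23646, 5747 and 5862 in replicates 1, 2 and 3, and a pair of 339 and 333 in intron 3, which overlap the same replicate peaks, ranked 20770, 4356 and 8724. All 3 were top peaks in replicate 2 and far outside the top peaks of replicate 1.

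The co-repressor gene gro (FBgn0001139, 3R, 26041736 to 26049911, plus strand) is 8.18 kb long. That is shorter than most members but longer than most protein-coding genes, and gro had 4 summits. The strongest, 143 bp upstream of an internal TSS and within intron 1 of the longest transcript, had signals of 335, 1051 and 569 in replicates 1, 2 and 3. It ranked 432, 491 and 254, and its IDR-thresholded signal was 1970, rank 366. At the first TSS a summit 134 bp upstream had a signal of 820.2 and ranked 1836, 2499 and 1480. The other summits, of 672 and 490.2, lay past the 3′ end at the TSSs of Exo84, an exocyst subunit gene, and Vps2, an ESCRT-III subunit gene. Just outside the gro window, 5078 bp from the gene body, a summit of 2460.2 lay within 500 bp of the TSS of E(spl)m7-HLH.

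Su(H) (FBgn0004837, 2L, 15039488 to 15043334, plus strand) encodes the DNA-binding protein of the pathway, and H (FBgn0001169, 3R, 20621938 to 20628915, plus strand) the adaptor that joins it to co-repressors. Neither had a pooled peak in the body or within 5 kb, as was the case for 23.3% of all protein-coding genes. The nearest IDR-thresholded summit lay 13554 bp from the body of Su(H) and 27254 bp from that of H. Both are shorter than most members, at 3.85 kb for Su(H) and 6.98 kb for H. An IDR-thresholded summit in the body or within 5 kb was found at 68.7% of all genes of 2 to 5 kb. For genes of 5 to 10 kb the share was 75.8%, and any part played by length was not tested.

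Each of these genes had a promoter peak in 1 replicate list and none in the others. At Su(H) it was a top peak of replicate 3, 19 bp from the TSS, with a signal of 82.6 and a rank of 6066. At H it came from replicate 1, 42 bp from the TSS, with a signal of 44.5 and a rank of 10562, outside the top peaks. Top peaks listed in a single replicate, with no peak in the pooled list or the other replicates, made up 0.622% of those of replicate 3.

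**Figure D2:**
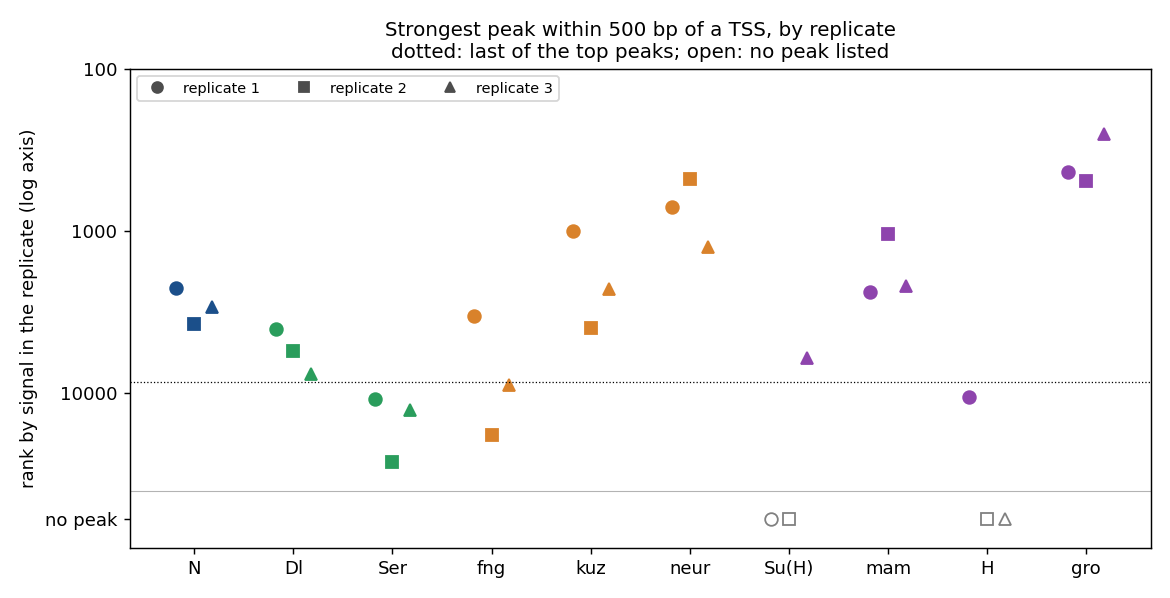
Rank by signal, on a log axis, of the strongest peak within 500 bp of a TSS of each of the 10 genes in replicates 1, 2 and 3; the dotted line marks rank 8522 and open symbols mark genes with no listed peak. At N, Dl, kuz, neur, mam and gro all 3 points lie inside the dotted line, and so do replicate 1 alone at fng and replicate 3 alone at Su(H).

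Set by role, the nuclear genes had 18 IDR-thresholded summits, 1.40 per 10 kb of window, all at mam and gro. The processing and trafficking genes had 17, or 1.05 per 10 kb, spread over all 3 genes. The receptor gene had 6, or 1.27 per 10 kb, and the ligand genes 2, or 0.305 per 10 kb, both at Dl. The median signal was 582 at nuclear genes, 412 at processing and trafficking genes, 290.5 at the receptor gene and 326 at the ligand genes. Roles hold 1 to 4 genes and summits at 1 gene are not replicates, so these differences were not tested.

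In the pooled list, which holds weaker peaks as well, the ligand genes had 21 summits, or 3.20 per 10 kb. This was more than the 2.90 per 10 kb of the processing and trafficking genes and less than the 4.92 of the nuclear genes and the 6.34 of the receptor gene. The place of the ligands as the role with the fewest summits per length thus held for the stronger peaks and not for all of them. In the IDR-thresholded list the nuclear genes alone ranged from 0 to 2.20 per 10 kb, a wider range than the 0.305 to 1.40 between roles.

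**Figure D3:**
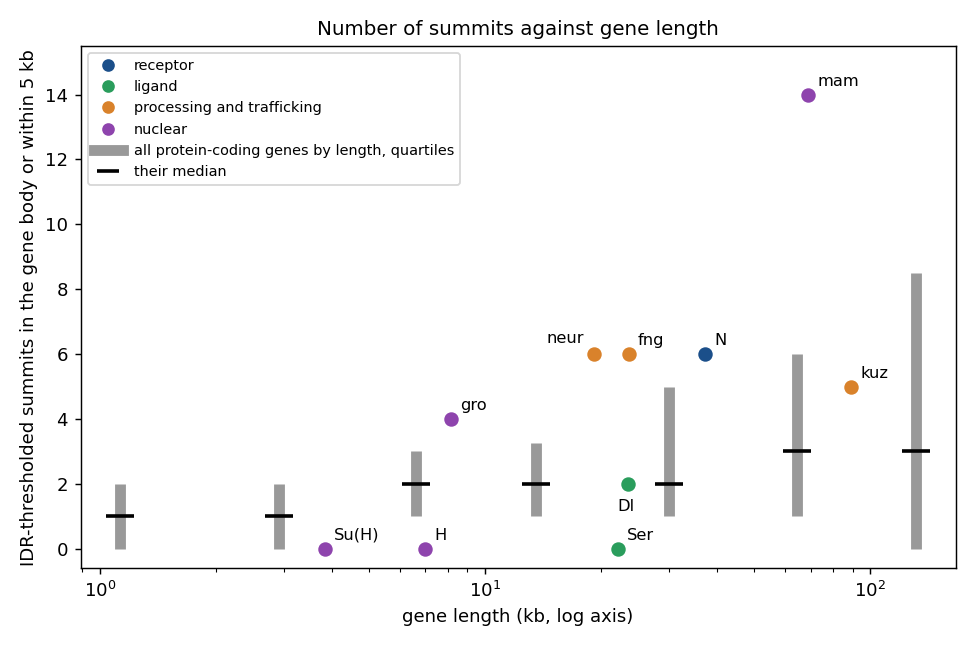
Number of IDR-thresholded summits in the gene body or within 5 kb (y axis) against gene length in kb on a log axis (x axis) for the 10 genes, coloured by role; grey bars span the quartiles of all protein-coding genes of each length class and black ticks mark their medians. The mam gene, with 14, stands far above the median of 3 for genes of 50 to 100 kb, and Ser, Su(H) and H lie at 0.

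Introns held more of the members' summits and intergenic sequence fewer than in the whole list. Of the 43 summits, 53.5% were in introns, against 33.1% of all IDR-thresholded summits, 41.9% within 500 bp of a TSS, against 49.4%, and 4.65% intergenic, against 15.4%. A window drawn around gene bodies takes in little intergenic sequence, so this comparison is shaped by the rule that chose the summits. None of the 43 lay in a coding exon or a UTR outside promoters. Such places were also rare over the whole list, at 0.0939% for coding exons, 0.399% for 5′ UTRs and 0.739% for 3′ UTRs. Of the 18 promoter summits, 11 were at a member's own TSS and 7 only at the TSS of a neighbouring gene.

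All 11 summits within 500 bp of a member's TSS lay upstream of it, at 104 to 383 bp, with a median of 177 bp. Over all protein-coding genes, 88.4% of such pairs of gene and summit had the summit upstream, and the median distance was 141 bp. None of the 11 was within 100 bp of the TSS, against 32.7% of all pairs. Where no other gene's TSS lay within 500 bp, 8 of 8 members' summits were upstream, against 85.04% of 2272. Single replicates gave nearer positions for the same promoters, such as 94 bp at Dl in replicate 3.

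The members' peaks were about as strong as the list they came from. Their median signal was 473, against 447 for all IDR-thresholded peaks, and 5 of the 43 were among the strongest 10%: those at N intron 5, the internal start of neur, the 2 summits in mam intron 3 and the internal start of gro. None of these 5 was at the first TSS of its gene.

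Summits at the members were rich in A and T. The median A+T content within 50 bp of the 43 summits was 73.3%, against 70.3% for all IDR-thresholded summits. It was above that of windows 500 bp to either side at 39 of the 43, against 85.3% of all summits, and by 14.3 percentage points on average, against 12.7. The median longest run of A and T was 11 bases in both sets. The gro promoter printed above has a run of 18, the fng intron 4 summit one of 32 and the kuz intron 5 summit one of 37.

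The summits that departed from this were few. A+T was no higher than in the flanks at 1 of 2 promoter summits of N, the weaker of the 2 in N intron 5, the summit at the tgo TSS and 1 summit in mam intron 2. The N promoter summit printed last was the lowest of the 43, at 43.6%. The highest, 85.1%, was in kuz intron 3.

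**Figure D4:**
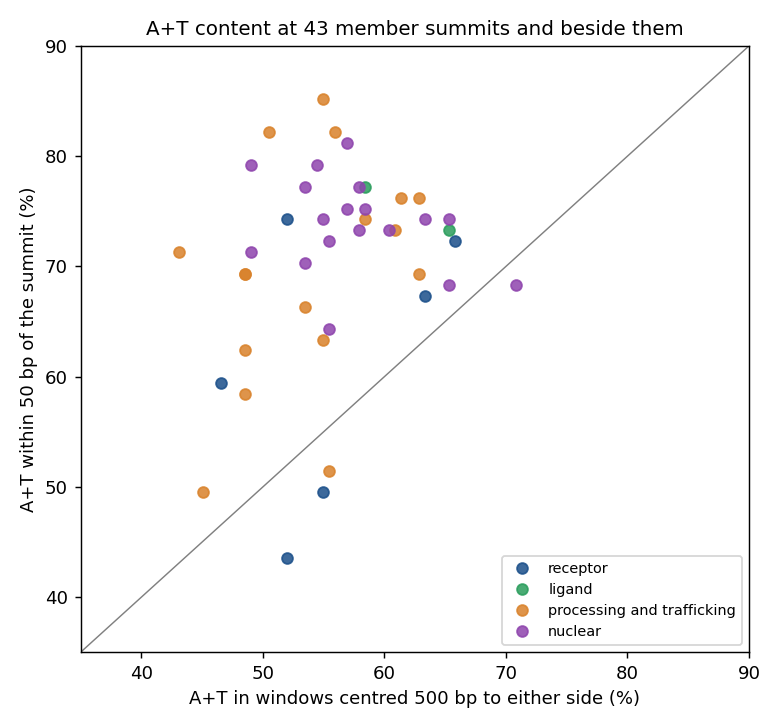
A+T content within 50 bp of each of the 43 IDR-thresholded summits (y axis, %) against that of windows centred 500 bp to either side (x axis, %), coloured by role. Points above the diagonal, 39 of 43, have more A+T at the summit than beside it.

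Short words were counted on both strands within 50 bp of the summits. The pentamer CGATA, which is part of the longer TATCGATA bound by the factor DREF, was present at 5 of the 43 summits (11.6%), against 16.4% of all IDR-thresholded summits. These were N intron 5, the tgo and hyx starts beside neur, and 2 mam summits. TATCGATA itself was at none, against 2.41%. AAAATATT was at 3 (6.98%), against 7.44%, and GGTCACACT and CATCNCTA were each at 1 (2.33%), against 1.17% and 1.56%. GAGAGAG was at none, against 0.892%. The members' shares were below those of the whole list for 4 words and above them for GGTCACACT and CATCNCTA, each of which rests on 1 summit. With at most 5 of the 43 summits per word, these differences are small and are no result about these genes.

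The site of Su(H), searched as CGTGAGAA, CGTGGGAA, TGTGAGAA or TGTGGGAA, was at none of the 43, against 0.763% of all summits. That says only that these letters were not in these windows.

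A top peak of replicate 1 was found at 74.4% of the members' 43 IDR-thresholded peaks, against 82.1% of the whole list. In replicate 2 the share was 95.3%, against 89.4%, and in replicate 3 it was 81.4%, against 87.9%. The members' peaks were thus top peaks more often than the whole list in replicate 2 and less often in replicates 1 and 3, which was not tested. Peaks that were top peaks in all 3 replicates made up 60.5% of the members' peaks, or 26, against 69.2% of the whole list. Any replicate peak that overlapped the interval counted, so summits in shared or overlapping intervals could take the same replicate peak. The summit of 235 in N intron 5, for example, took the ranks of the stronger summit in its interval. The pooled and IDR-thresholded lists were made from the same alignments as the replicate lists, so they are not independent of them.

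Counted from each replicate alone, members with a top summit in the body or within 5 kb numbered 7, 7 and 9, or 7.67 ± 1.15 (SD, n = 3), against 64.0%, 63.6% and 65.1% of all genes. The 2 genes gained in replicate 3 were Ser and Su(H). Members with a top summit at a TSS numbered 7, 6 and 7, against 35.3%, 32.8% and 35.3%. The members' top summits numbered 40, 41 and 37, or 39.3 ± 2.08 (SD, n = 3). Across the members' intervals, which are not independent, the Spearman correlation of signal was 0.835 between replicates 1 and 3 (40 intervals), 0.681 between 2 and 3 (40) and 0.609 between 1 and 2 (41).

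A wider list of 44 further pathway genes had summits nearby more often than the 10 members and at a TSS less often, which was not tested. It holds γ-secretase subunits, ubiquitin ligases, endocytic proteins, nuclear cofactors and the E(spl) complex, the best known set of Notch targets. An IDR-thresholded summit lay in the body or within 5 kb of 38 (86.4%), against 63.9% of all protein-coding genes, and at a TSS of 20 (45.5%), against 34.4%. The genes without any pooled summit were Psn, which encodes the catalytic subunit of γ-secretase, and Vps25, an ESCRT-II subunit gene. The strongest TSS peak, 3663, was at l(2)gd1, an endosomal regulator of Notch, and was shared with Reps.

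In the E(spl) complex, 10 of 11 genes had a summit in the body or within 5 kb, against 63.9% of all protein-coding genes, but these short genes are neighbours whose windows overlap, so several share a peak. At a TSS there was one at 3 of the 11 (27.3%), near the 34.4% of all protein-coding genes, against 17 of the 33 other listed genes (51.5%). The 3 were among the strongest of the list: 2526 at E(spl)m3-HLH, 2460.2 at E(spl)m7-HLH and 1716 at E(spl)mdelta-HLH. The E(spl)m3-HLH peak was shared with lncRNA:CR43644 and that of E(spl)mdelta-HLH with CG43116. All 3 E(spl) genes encode bHLH repressors that work with Groucho.

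Strong TSS peaks also lay at numb (2187), which encodes an inhibitor of Notch inherited by 1 daughter of a dividing precursor, and at aph-1 (1723), a γ-secretase subunit gene. The others of the 10 strongest were at bib (1577), rumi (1453), which encodes a glucosyltransferase acting on Notch, nej (849), the gene of the co-activator CBP, and Rab11 (799). The aph-1 peak was shared with Snx21, that of bib with lncRNA:CR13130 and that of rumi with CG7029 and Usp12-46.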

How the data were processed

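The 5 deposited peak lists on dm6 were used: 1 for each of 3 replicates, 1 pooled and 1 thresholded by IDR. Per the deposited file listings, the replicate lists were called against 1 shared control, and the authors made the thresholded list from the other 4. The sources used here name no aligner, caller, version or IDR setting. The authors' signal value per peak was used to rank peaks within a list. The deposited −log10 q-value is constant in the thresholded list and was not used. Deposited summit offsets placed each summit. Replicate and pooled lists hold 30000 peaks each, so depth is unknown. The 8522 thresholded peaks are the pooled peaks with the highest signal.

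Genes and TSSs came from Ensembl release 115, and sequence from the RefSeq Release 6 assembly, whose coordinates are those of dm6. Each summit got 1 place, taken in turn from promoter (a TSS within 500 bp), UTR or exon, intron and intergenic. Top peaks are the 8522 strongest of a replicate on the arms. An overlap of 1 bp made peaks shared. A summit could count for several genes. Counting was done in Python 3.11.15 with pandas 2.3.3 and was checked on simulated lists.

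No test was made, since there was 1 group. Members and lists were chosen with earlier results of these data known. All 10 members were named, with genes sharing their peaks and the 10 further pathway genes with the strongest TSS peaks. Of 46 listed further names, dlk had no match, and nrt was left out because its match is not a pathway gene. The sequence of 1 summit upstream of fng is not reported here.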

Additional observations from a re-analysis of the deposited data

How the results depend on the processing

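The alternatives were other flanks, thresholds, TSS distances, assignments and overlaps. Members with a summit in the body or within 5 kb numbered 6 to 8 under the other flanks, thresholds and assignments and without each replicate, against 7 as reported. Without a flank, summits numbered 26 and genes with one 16.3%; with 2 kb the share of genes was 50.7%. With the stronger 50% of the list, summits numbered 22, genes with one made up 48.1%, genes with one at a TSS 21.5%, and members' peaks that were top peaks in all replicates 90.9%. With the whole pooled list these were 161 summits, 76.7% and 52.2% of genes. When 1 replicate was left out, a peak had to be a top peak of both others, and summits numbered 28 (without replicate 2) to 33, members with one 7 to 7 and at a TSS 6 to 6. The share of genes was then 56.0% to 57.9%, at a TSS 27.4% to 28.9%, and the members' share of top peaks 65.1% to 76.7%. Within 100 bp of a TSS, 0 members and 13.1% of genes had a summit, and within 1000 bp 7 members and 38.2% of genes did. Members with one within 500 bp numbered 5 with the stronger 50% of the list and 8 with the whole pooled list. With each summit given only to its nearest TSS they numbered 6. Given only to the nearest TSS, summits numbered 20, and 32.5% of genes had one, 25.8% at a TSS. The share of top peaks was 30.2% with reciprocal overlap of 50% and 44.2% with summits within 100 bp. Under all these alternatives that share was counted for the members only, so it cannot be set beside the whole list. An alternative chosen after seeing the data, without summits at other genes' TSSs, left 33 summits at 7 members. Of 80 counts for single members, 46 stayed within 1.5 times and 34 did not. The 46 include counts of 0 at Ser, Su(H) and H. Except with the whole pooled list, each alternative could only take summits away, so a count of 0 could not change. No paired analysis was possible because there was 1 group. Unknown depth limits what the absence of a peak at Su(H) or H can show.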

Other observations

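Below the IDR threshold, 118 further pooled summits lay at the members. Introns held 64.4% of these, against 44.5% of all weaker pooled summits, and promoters 15.3%, against 24.6%. As with the stronger summits, this comparison is shaped by the window drawn around gene bodies. Coding exons had 6 of the weaker summits (5.08%, against 4.34% of all weaker pooled summits), and 3′ UTRs had 5 (4.24%, against 2.95%). Neither place held any of the 43 stronger summits, and over the whole IDR-thresholded list they held only 0.0939% and 0.739%. By gene, mam had 39, N 24, neur 13, kuz 12, Dl 11, Ser 8, gro 6 and fng 5. At the edge of the threshold, the weakest peaks inside it were 234.9 at N and 235 and 254 at fng, and the strongest outside it were 212 at mam, 26 bp from a TSS, 208 at Ser and 204 at Dl.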
